A study of Eonycteris spelaea and Mus musculus with 51 samples.

Results

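The mitochondrial chaperones are followed here through 4 genes, HSPD1, HSPE1, HSPA9 and TRAP1, in the cave nectar bat Eonycteris spelaea and in the mouse. The genes were picked by name, with earlier results of these data known. In the bat table they are the rows with the human Ensembl identifiers ENSG00000144381 (HSPD1), ENSG00000115541 (HSPE1), ENSG00000113013 (HSPA9) and ENSG00000126602 (TRAP1), a pairing that comes from the definition of the set and not from the deposited table. In the mouse table they are the rows Hspd1, Hspe1, Hspa9 and Trap1. Together they are 8 of 70857 gene rows, 4 of 30017 in the bat table and 4 of 40840 in the mouse table. All 8 passed the filter on low counts in each of the tissues.

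The animals were given heat shock alive, and blood, muscle and lung were taken for bulk RNA sequencing. The control stage is the baseline, the heat stage the end of 1 h of heat shock, and the recovery stage a further 4 h after that hour. The 51 libraries (27 bat and 24 mouse) form 18 groups of species, tissue and stage. Each group holds 3 libraries, except those of mouse blood, which hold 2. Strain, sex, age, body temperature and the temperature of the treatment are not given in the sources used here. No animals without heat shock were sampled at the later times, so an effect of heat cannot be told apart from one of handling or elapsed time. The labels do not say whether replicates are separate animals, and the p-values measure only the spread between these libraries.

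Most mitochondrial proteins are made in the cytosol, pulled through the inner membrane in an unfolded state and folded in the matrix. HSPA9 (mortalin, the mitochondrial HSP70) binds the incoming chain at the import pore and draws it in, with GrpE-type exchange factors and J proteins as partners. HSPD1 (HSP60) forms the barrel of the matrix chaperonin and HSPE1 (HSP10) its lid, and a protein folds enclosed between them. TRAP1 is the HSP90 of mitochondria. HSPD1 and HSPE1 lie head to head in mammals and share a promoter region that responds to heat shock factor, and all 4 are known to be expressed in every tissue with mitochondria.

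Total counts per library ran from 9.29 to 33.3 M reads in the bat and from 17.1 to 54.5 M reads in the mouse. Levels are in CPM, the usual depth-scaled read count, with TMM scaling set within each species and tissue unless stated otherwise, and changes are log2 ratios with their standard error (SE). A gene was called when the p-value of edgeR's quasi-likelihood test, adjusted by the Benjamini-Hochberg method over all genes tested, was under 0.05. Percentages of genes called refer to these edgeR calls and are no reference for counts by DESeq2 or by unadjusted p. The mouse tissue labels stood against marker genes: the summed level of 5 skeletal muscle markers was 144539 to 270302 CPM over the muscle libraries, that of 6 lung epithelium markers 14904 to 17319 CPM in lung, and that of 7 blood markers 369110 to 914172 CPM in blood. The same check was not made in the bat, whose identifiers are not paired with names here. In bulk tissue, fewer cells of a type and less RNA per cell cannot be told apart. In the GRCm38 mouse annotation Hspd1 and Hspe1 lie on opposite strands and overlap at their starts. The strand setting of the counting is not stated, so reads from the shared stretch cannot be assigned to 1 of them.

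Before heat shock, all 4 genes were highest in muscle in both species. For levels across tissues, CPM was scaled over all libraries of the species. The sizes of the tissue gaps depend on this scaling. Scaled within each tissue instead, bat HSPD1 controls averaged 66.3 CPM in blood, 308 CPM in muscle and 203 CPM in lung. Values and tests that follow use the scaling over all libraries. In the bat, HSPA9 averaged 58.6 ± 19.3 CPM in blood, 1223 ± 92.1 CPM in muscle and 94.8 ± 24.6 CPM in lung (SD, n = 3 each), and HSPD1 averaged 62.6 ± 14.5, 520 ± 89.5 and 123 ± 2.38 CPM in the same tissues. TRAP1 averaged 17.3 ± 5.61 CPM in blood, 224 ± 70.2 CPM in muscle and 29.5 ± 5.74 CPM in lung, and HSPE1 24.6 ± 11.9, 203 ± 49.2 and 48.8 ± 16.1 CPM. The largest gap between muscle and lung was that of HSPA9, with a log2 difference of 3.69 (SE 0.40, edgeR adjusted p = 6.3e-08), followed by TRAP1 at 2.92, HSPD1 at 2.07 and HSPE1 at 2.05, all called. Of all genes tested, 55.9% were called in this comparison. Against muscle, blood was lower in all 4, from -4.38 for HSPA9 to -3.04 for HSPE1 (largest edgeR adjusted p 1.2e-05, with 64.5% of genes called). Against lung, blood was called lower for HSPD1 (-0.98, edgeR adjusted p = 0.0211) and TRAP1 (-0.77, edgeR adjusted p = 0.0275), while HSPE1 (-0.98, 95% interval -1.97 to 0.00) and HSPA9 (-0.69, -1.46 to 0.07) did not pass, in a comparison where 57.6% of genes were called. The blood and lung calls rested on few libraries. HSPD1 was no longer called without blood control 1 (-0.88) or 2 (-0.89), nor TRAP1 without blood control 1 (-0.79) or 2 (-0.54) or lung control 1 (-0.66) or 2 (-0.71). Without blood recovery 2, HSPE1 (-0.98) and HSPA9 (-0.69) were called too.

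In mouse controls the order of the tissues was similar. Hspa9 averaged 38.0 ± 1.64 CPM in blood (SD, n = 2), 279 ± 42.8 CPM in muscle and 48.2 ± 1.83 CPM in lung (SD, n = 3 each). Hspd1 averaged 30.2 ± 3.73, 124 ± 18.3 and 38.1 ± 2.91 CPM, Trap1 27.2 ± 4.07, 86.3 ± 11.4 and 25.0 ± 2.55 CPM, and Hspe1 9.76 ± 1.73, 21.2 ± 2.13 and 8.18 ± 2.03 CPM in the same tissues. These gaps also depend on the scaling. Scaled within each tissue instead, Hspe1 controls averaged 5.07 CPM in blood, 17.5 CPM in muscle and 15.4 CPM in lung. Hspd1 controls then averaged 15.7, 103 and 71.6 CPM. The tests that follow use the scaling over all libraries. Muscle was called above lung for all 4 genes, by 2.53 for Hspa9 (SE 0.15, edgeR adjusted p = 7.7e-11), 1.79 for Trap1, 1.70 for Hspd1 and 1.37 for Hspe1 (edgeR adjusted p = 0.0216), with 56% of genes called. Hspe1 lost this call without lung control 2 (1.24), lung control 3 (1.25) or muscle control 3 (1.20). Blood was called below muscle for Hspa9 (-2.88), Hspd1 (-2.04) and Trap1 (-1.67) and not for Hspe1 (-1.11, 95% interval -2.29 to 0.06), with 67% of genes called. Hspe1 was called there without lung heat 2 (-1.13) or lung heat 3 (-1.13). Between blood and lung none of the 4 was called by edgeR, none at an unadjusted p under 0.05 and 1 by DESeq2 (Hspa9), with log2 differences from -0.34 to 0.26 and 60.7% of genes called. Hspa9 (-0.34) was close to the threshold and was called by edgeR when any of 14 of the 24 libraries was left out, at values between -0.50 and -0.34 over all leave-outs. Per kilobase of exon, so that genes can be compared, muscle controls held 64.8 ± 9.92 CPM per kb of Hspa9, 46.9 ± 6.92 of Hspd1, 33.5 ± 4.42 of Trap1 and 14.4 ± 1.45 of Hspe1 (SD, n = 3). In lung controls Hspd1 led at 14.4 ± 1.10 CPM per kb, ahead of Hspa9 at 11.2 ± 0.43, Trap1 at 9.72 ± 0.99 and Hspe1 at 5.55 ± 1.37. Blood had a flatter order, from Hspd1 at 11.4 ± 1.41 to Hspe1 at 6.62 ± 1.17 CPM per kb (SD, n = 2).

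To determine how the chaperonin genes and their partners responded to heat, each stage was compared within its species and tissue. In bat lung the heat libraries straddled the control libraries, and both chaperonin genes were lowest at recovery. HSPD1 stood at 198, 194 and 218 CPM in control, 149, 365 and 263 CPM at heat and 69.1, 76.2 and 71.9 CPM at recovery. HSPE1, the lid of the chaperonin, stood at 61.4, 63.6 and 120 CPM in control, 41.0, 98.8 and 76.1 CPM at heat and 25.1, 22.9 and 27.1 CPM at recovery. All recovery libraries lay below all heat and control libraries for both genes, and the recovery libraries lay close together while the heat libraries were spread widely. HSPA9 was measured at 180, 163 and 119 CPM in control, 161, 205 and 197 CPM at heat and 124, 113 and 121 CPM at recovery. TRAP1 ranged only from 40.7 to 62.2 CPM over the 9 libraries. For HSPA9 recovery lay below heat and overlapped with control, and for TRAP1 all stages overlapped.

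HSPD1 fell in bat lung between heat and recovery, to 0.28 of its heat level (log2 -1.84, SE 0.27, edgeR adjusted p = 0.0429). HSPE1 (-1.52, edgeR adjusted p = 0.166) and HSPA9 (-0.65, edgeR adjusted p = 0.212) did not pass, and the log2 change of TRAP1 was 0.19. Thus 1 of the 4 genes was called, against 0.125% of all genes, and 3 had recovery libraries wholly below heat, where 25.5% of all genes did not overlap in either direction. DESeq2 called 3 of the 4, and 449 of all 19149 genes. Against control, recovery was at -1.49 for HSPD1 (SE 0.26, edgeR adjusted p = 0.11), -1.70 for HSPE1 (SE 0.34, edgeR adjusted p = 0.151), -0.37 for HSPA9 and 0.22 for TRAP1. None was called by edgeR, where 0.047% of all genes were, 3 had an unadjusted p under 0.05 and 2 were called by DESeq2 (adjusted p 3.4e-05 for HSPD1 and 0.00027 for HSPE1). Over all 19149 genes, 3090 had an unadjusted p under 0.05 and DESeq2 called 910. The 2 chaperonin genes had no overlap between recovery and control, as had 20.6% of all genes. Heat against control gave 0.35 for HSPD1, -0.18 for HSPE1, 0.28 for HSPA9 and 0.03 for TRAP1, with 0 called by edgeR or DESeq2 and 0 at an unadjusted p under 0.05. In that comparison 0% of all genes were called and 10.5% did not overlap. The HSPD1 call was narrow: leaving out control 1 gave an edgeR adjusted p of 0.089 and control 2 one of 0.0819. Leaving out heat 2 or 3 gave 0.112 and 0.183, and leaving out recovery 1, 2 or 3 gave 0.259, 0.197 and 0.288. The value ran from -2.12 to -1.54 over all 9 such fits. With the replicate number as a block it was -1.78 (edgeR adjusted p = 0.0949). Without control 3, the shallowest library, HSPE1 (-1.52) and HSPA9 (-0.65) were called as well, and without heat 1 HSPD1 was called against control (-1.49).

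In bat muscle, where HSPA9 was by far the highest of the 4 in CPM, no change between stages was called for any of them. HSPA9 stood at 768, 746 and 664 CPM in control, 760, 766 and 887 CPM at heat and 661, 740 and 707 CPM at recovery. HSPD1 stood at 262, 356 and 306 CPM in control, 248, 382 and 459 CPM at heat and 230, 273 and 219 CPM at recovery. Recovery lay below heat for HSPA9, and the stages overlapped in every other comparison of these genes. HSPE1 ranged from 87.8 to 157 CPM and TRAP1 from 85.7 to 169 CPM over the 9 libraries, with every pair of stages overlapping. Log2 changes at heat were 0.24, 0.15, 0.15 and 0.05 for HSPD1, HSPE1, HSPA9 and TRAP1, and those at recovery against control -0.36, -0.05, -0.05 and 0.04. Recovery against heat gave -0.59 for HSPD1 (SE 0.21, edgeR adjusted p = 0.384), -0.20 for HSPE1, -0.19 for HSPA9 and -0.01 for TRAP1. No gene of the 4 was called by edgeR or DESeq2 at heat (0 at an unadjusted p under 0.05), at recovery against control (0) or at recovery against heat (1, HSPD1). Over all genes, 0.0376% were called and 25.4% did not overlap at heat against control, 2.67% and 26.4% at recovery against control, and 0.00627% and 16.5% at recovery against heat. In the last comparison 1670 of 15950 genes had an unadjusted p under 0.05.

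In bat blood HSPD1 and HSPE1 had their highest library at heat and their lowest at recovery. HSPD1 stood at 56.0, 59.8 and 83.1 CPM in control, 79.0, 283 and 129 CPM at heat and 23.5, 19.7 and 31.0 CPM at recovery. HSPE1 stood at 30.3, 12.2 and 35.2 CPM in control, 28.9, 95.4 and 53.0 CPM at heat and 10.9, 2.43 and 12.4 CPM at recovery. Heat overlapped with control for both, recovery lay below heat for both, and recovery lay below control for HSPD1 alone of the 4. HSPA9 stood at 78.5, 41.2 and 65.8 CPM in control, 87.3, 154 and 73.2 CPM at heat and 59.0, 14.6 and 54.0 CPM at recovery, so that recovery again lay below heat. TRAP1 ranged from 12.5 to 26.0 CPM without a stage apart from the others. Recovery library 2 held only 29 reads of HSPE1 and 175 of HSPA9 and was the lowest of all 9 libraries for both.

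The changes in bat blood were large but not called, in the tissue with the widest spread between libraries. Its biological coefficient of variation was 0.536, against 0.161 to 0.343 in the other tissues of both species. Recovery against heat gave -2.73 for HSPD1 (SE 0.49, edgeR adjusted p = 0.269), -2.78 for HSPE1 (SE 0.68, edgeR adjusted p = 0.469), and -0.17 for TRAP1, while HSPA9 stood at 0.41 of its heat level. Of the 4, 3 had an unadjusted p under 0.05, 2 were called by DESeq2 (adjusted p 4.9e-05 and 0.011 for the chaperonin genes), and 3 had no overlap, while 0% of all genes were called and 16.2% did not overlap. Such an unadjusted p was found for 1670 of all 16038 genes, and DESeq2 called 119. Without heat 2 the HSPD1 value was -2.07. Heat against control gave a 2.47-fold level for HSPD1 (SE of the log2 change 0.47, edgeR adjusted p = 1) and log2 changes of 1.19 for HSPE1, 0.76 for HSPA9 and 0.03 for TRAP1, with 0 called by edgeR or DESeq2, 1 at an unadjusted p under 0.05 and no gene without overlap (0% and 10.8% of all genes). Recovery against control gave -1.42 for HSPD1, -1.59 for HSPE1, -0.54 for HSPA9 and -0.13 for TRAP1, with 0 called by edgeR or DESeq2, 2 at an unadjusted p under 0.05 and 1 without overlap (0% and 10.7% of all genes). Over all 16038 genes, 351 had an unadjusted p under 0.05 at heat and 849 at recovery, both against control.

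**Figure D1:**
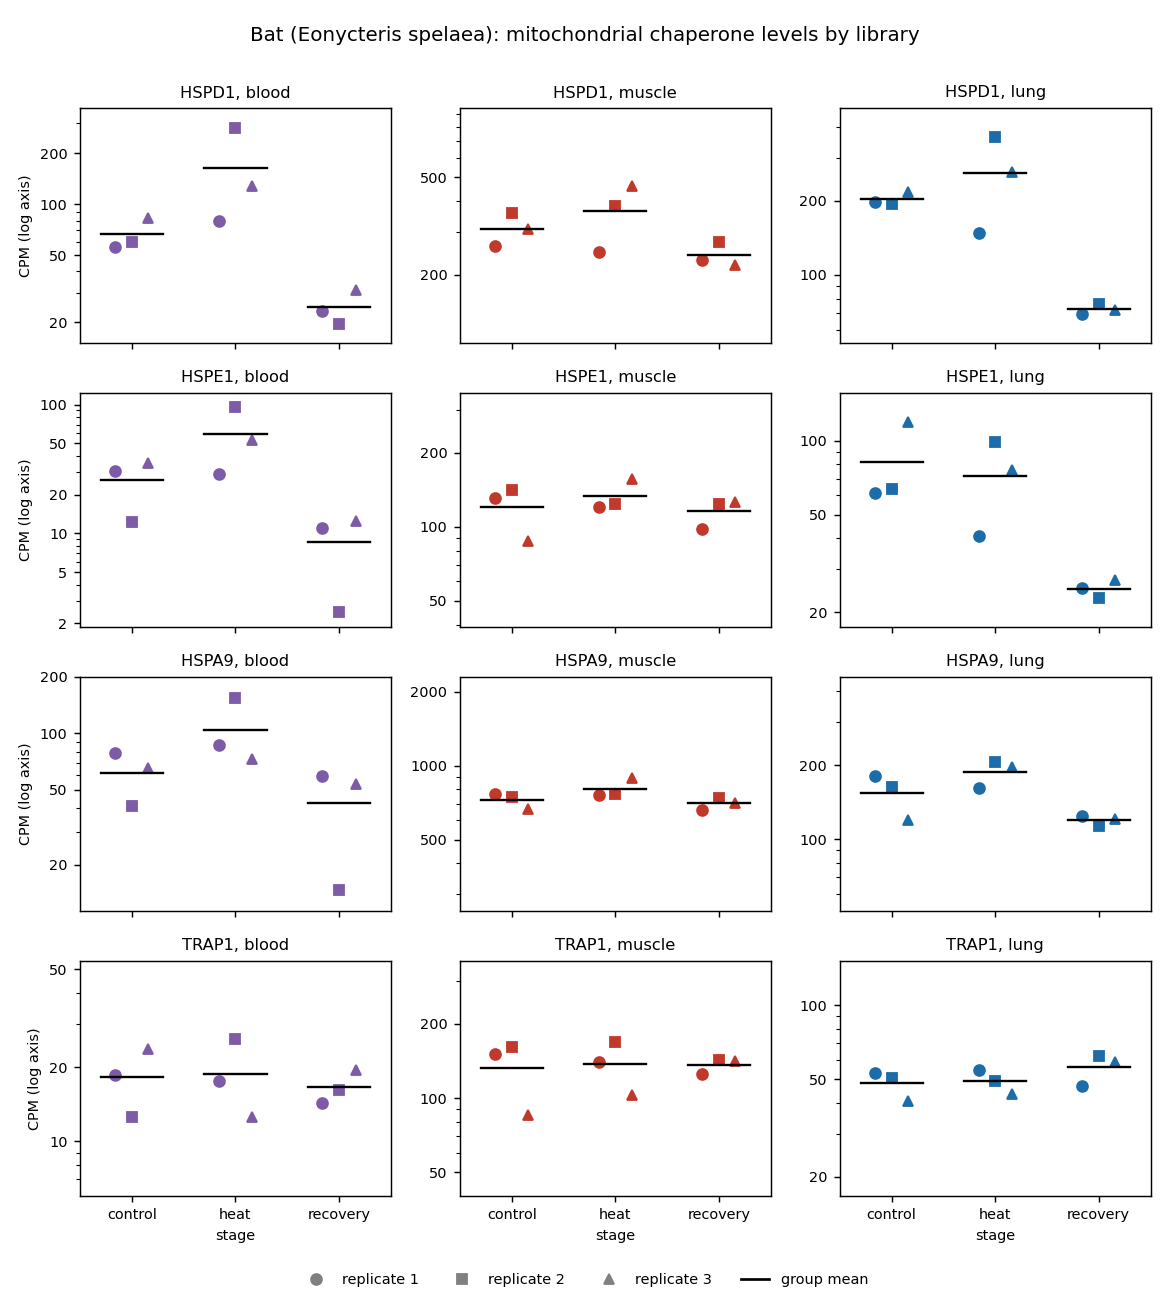
Levels of the 4 genes in bat blood, muscle and lung, in CPM scaled within each tissue, on log axes. Each panel has its own axis range, and levels in different tissues share no scale. Each symbol is 1 library, symbols stand for replicate numbers and black bars for group means. In lung, the recovery libraries of HSPD1 (69.1 to 76.2 CPM) and HSPE1 (22.9 to 27.1 CPM) lie below all others, and TRAP1 overlaps between stages throughout.

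In mouse lung every heat library of the chaperonin genes lay above every control and recovery library, without a call by edgeR. Hspd1 stood at 77.9, 67.0 and 69.8 CPM in control, 300.5, 137 and 806 CPM at heat and 59.4, 78.3 and 88.5 CPM at recovery. Hspe1 stood at 19.8, 13.0 and 13.2 CPM in control, 62.5, 36.7 and 191 CPM at heat and 19.2, 21.9 and 26.8 CPM at recovery. The heat libraries themselves spread over a wide range in both genes, with library 3 highest and library 2 lowest. Hspa9 stood at 92.9, 92.6 and 85.7 CPM in control, 115, 96.2 and 144 CPM at heat and 80.7, 93.0 and 92.3 CPM at recovery, with the same order of the heat libraries. Trap1 stood at 43.9, 52.6 and 44.2 CPM in control, 48.4, 49.1 and 55.1 CPM at heat and 40.9, 44.1 and 42.4 CPM at recovery. For Hspa9 heat lay above both other stages, and for Trap1 heat overlapped with control and lay above recovery.

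At heat, the log2 change in mouse lung was 2.53 for Hspd1 (5.79-fold, SE 0.63, edgeR adjusted p = 0.0721), 2.65 for Hspe1 (6.28-fold, SE 0.63, edgeR adjusted p = 0.063), 0.39 for Hspa9 (1.31-fold, edgeR adjusted p = 0.0832) and 0.12 for Trap1 (edgeR adjusted p = 0.497). By edgeR 0 of 4 were called, although 5.85% of all genes were. At an unadjusted p under 0.05 there were 3, DESeq2 called 3 (adjusted p 0.00065, 0.00063 and 0.0392 for Hspd1, Hspe1 and Hspa9), and 3 had no overlap, as had 26.9% of all genes. Such an unadjusted p was found for 4568 of all 19438 genes, and DESeq2 called 2161. The edgeR calls turned on heat library 2, the one with the smallest response: without it Hspd1 (2.95), Hspe1 (3.04) and Hspa9 (0.52) were called. Without heat library 3, the one with the largest, the values were 1.61 for Hspd1 (not called) and 1.70 for Hspe1 (called). Recovery against heat was -2.46 for Hspd1 (edgeR adjusted p = 0.0574), -2.09 for Hspe1 (0.0792), -0.42 for Hspa9 (0.0506) and -0.26 for Trap1 (0.0952). No member of the 4 was called by edgeR, where 11.3% of genes were, all 4 had an unadjusted p under 0.05, DESeq2 called 3, and all 4 had no overlap, as had 33.4% of genes. Here 5507 of all 19438 genes had an unadjusted p under 0.05 and DESeq2 called 3102. Without heat 2 edgeR called Hspd1 (-2.87), Hspe1 (-2.48) and Hspa9 (-0.55). Recovery against control gave 0.08 for Hspd1, 0.56 for Hspe1, -0.03 for Hspa9 and -0.14 for Trap1. In that comparison 0 were called by edgeR or DESeq2, 0 had an unadjusted p under 0.05 and 0 were without overlap (0.0309% and 16.8% of all genes). Markers of lymphocytes moved with the stage in these libraries: the summed level of 4 B cell markers was 55.3 to 62.6 CPM at heat and 100.3 to 112 CPM in control. No marker was at 0, and their part in the result was not tested.

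In mouse muscle all 4 genes had every heat library above every control library, and the chaperonin genes had every recovery library above control too, without a call by edgeR. Hspd1 stood at 101, 89.9 and 118 CPM in control, 292, 197 and 480 CPM at heat and 141, 262 and 313 CPM at recovery. Hspe1 stood at 16.6, 16.7 and 19.3 CPM in control, 58.5, 38.1 and 106 CPM at heat and 27.1, 57.7 and 66.8 CPM at recovery. For both, heat and recovery overlapped, recovery lay above control, and heat library 3 was again the highest and heat library 2 the lowest of the heat libraries. Hspa9 stood at 218, 208 and 268 CPM in control, 329, 316 and 328 CPM at heat and 237, 289 and 317 CPM at recovery. Trap1 stood at 65.6, 67.8 and 81.0 CPM in control, 94.4, 88.0 and 90.2 CPM at heat and 62.8, 81.0 and 88.5 CPM at recovery. For these 2 genes recovery overlapped with both other stages.

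At heat, the log2 change in mouse muscle was 1.65 for Hspd1 (3.14-fold, SE 0.37, edgeR adjusted p = 0.0731), 1.95 for Hspe1 (3.85-fold, SE 0.42, edgeR adjusted p = 0.0727), 0.49 for Hspa9 (1.40-fold, edgeR adjusted p = 0.111) and 0.35 for Trap1 (1.27-fold, edgeR adjusted p = 0.155). The edgeR count was 0 (0.428% of all genes were called), all 4 had an unadjusted p under 0.05, DESeq2 called 3, and all 4 had no overlap (37.7% of all genes). Over all 17746 genes, 5318 had an unadjusted p under 0.05 and DESeq2 called 2607. Fitted on heat and control alone, edgeR called Hspd1 and Hspe1 (adjusted p = 0.0368 for both). Without recovery library 1, which shares the estimate of spread, it called Hspd1 (1.65), Hspe1 (1.95) and Hspa9 (0.49). At recovery against control, Hspd1 was at 1.21 (SE 0.37, edgeR adjusted p = 0.705), Hspe1 at 1.53 (SE 0.42, edgeR adjusted p = 0.651), Hspa9 at 0.28 and Trap1 at 0.12. None was called by edgeR (0.0676% of all genes were), 2 had an unadjusted p under 0.05, DESeq2 called 1 (Hspe1, adjusted p = 0.0256), and 2 had no overlap (9.52% of all genes). There, 879 of all 17746 genes had an unadjusted p under 0.05 and DESeq2 called 114. Recovery against heat gave -0.44, -0.42, -0.21 and -0.23 for Hspd1, Hspe1, Hspa9 and Trap1, with 0 called by edgeR or DESeq2, 0 at an unadjusted p under 0.05 and 0 without overlap (0.468% and 26.4% of all genes). Without heat 3, Hspe1 at recovery stood at 0.06 against heat. Markers of several cell types moved with heat in muscle as well. The summed level of 5 skeletal muscle markers was 250377 to 270302 CPM at heat and 144539 to 247718 CPM in control, that of 4 fibroblast markers 657 to 926 and 980 to 2108 CPM, and that of 4 adipocyte markers 5.33 to 108 and 118 to 463 CPM. Their part in the result was not tested.

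In mouse blood the chaperonin genes were highest at heat, and their drop to recovery was called. Hspd1 stood at 14.5 and 16.9 CPM in control, 96.1 and 52.5 CPM at heat and 9.96 and 11.9 CPM at recovery. Hspe1 stood at 4.50 and 5.64 CPM in control, 17.3 and 12.6 CPM at heat and 4.30 and 5.01 CPM at recovery. Heat lay above both other stages for both genes, and recovery lay below control for Hspd1 and overlapped with it for Hspe1. Hspa9 stood at 19.4 and 20.1 CPM in control, 26.4 and 29.3 CPM at heat and 19.3 and 19.6 CPM at recovery. Trap1 stood at 12.8 and 15.4 CPM in control, 13.2 and 13.8 CPM at heat and 14.1 and 14.6 CPM at recovery. Heat lay above both other stages for Hspa9. For Trap1 it lay below recovery and within the control range.

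In mouse blood Hspd1 and Hspe1 fell between heat and recovery, to 0.15 and 0.31 of their heat level. Their log2 changes were -2.77 (SE 0.31, edgeR adjusted p = 0.027) and -1.69 (SE 0.22, edgeR adjusted p = 0.0297), against -0.52 for Hspa9 (edgeR adjusted p = 0.0568) and 0.09 for Trap1 (edgeR adjusted p = 0.698). Thus 2 of 4 were called, against 3.99% of all genes, DESeq2 called 3, and none of the 4 overlapped, as did not 55.9% of all genes with these 2 libraries per group. DESeq2 called 1679 of all 15869 genes in this comparison. Both calls were lost without control 1 (-2.79 and -1.71), control 3 (-2.76 and -1.68), recovery 1 (-2.64 and -1.58) or recovery 2 (-2.89 and -1.79), and with heat and recovery fitted alone (edgeR adjusted p = 0.0512 and 0.0514). With the replicate number as a block they were not called either (edgeR adjusted p = 0.105 and 0.114). Without heat 1, Hspa9 was called at -0.59. At heat against control the log2 changes were 2.24 for Hspd1 (4.73-fold, SE 0.30, edgeR adjusted p = 0.0927), 1.56 for Hspe1 (2.95-fold, SE 0.21, edgeR adjusted p = 0.0927), 0.49 for Hspa9 (1.41-fold, edgeR adjusted p = 0.139) and -0.07 for Trap1. None was called by edgeR (0% of all genes were), 3 had an unadjusted p under 0.05, DESeq2 called 3, and 3 had no overlap (43.6% of all genes). Over all 15869 genes, 2355 had an unadjusted p under 0.05 and DESeq2 called 610. Without heat 1 edgeR called Hspd1 (1.74), and without heat 2 it called Hspd1 (2.61) and Hspe1 (1.77). Recovery against control gave -0.52 for Hspd1, -0.13 for Hspe1, -0.02 for Hspa9 and 0.02 for Trap1, with 0 called by edgeR or DESeq2, 0 at an unadjusted p under 0.05 and 1 without overlap (0% and 52% of all genes). The summed level of 7 blood markers, mostly haemoglobin genes, was 399212 to 571211 CPM in control and 768540 to 914172 CPM at recovery. At heat it was 369110 to 903320 CPM, overlapping with both. That of 7 neutrophil markers was 164 to 192 CPM in control, 249 to 271 CPM at heat and 86.1 to 144 CPM at recovery. That of 4 B cell markers went the other way, at 342 to 416, 249 to 283 and 418 to 424 CPM. The part of these markers in the result was not tested.

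**Figure D2:**
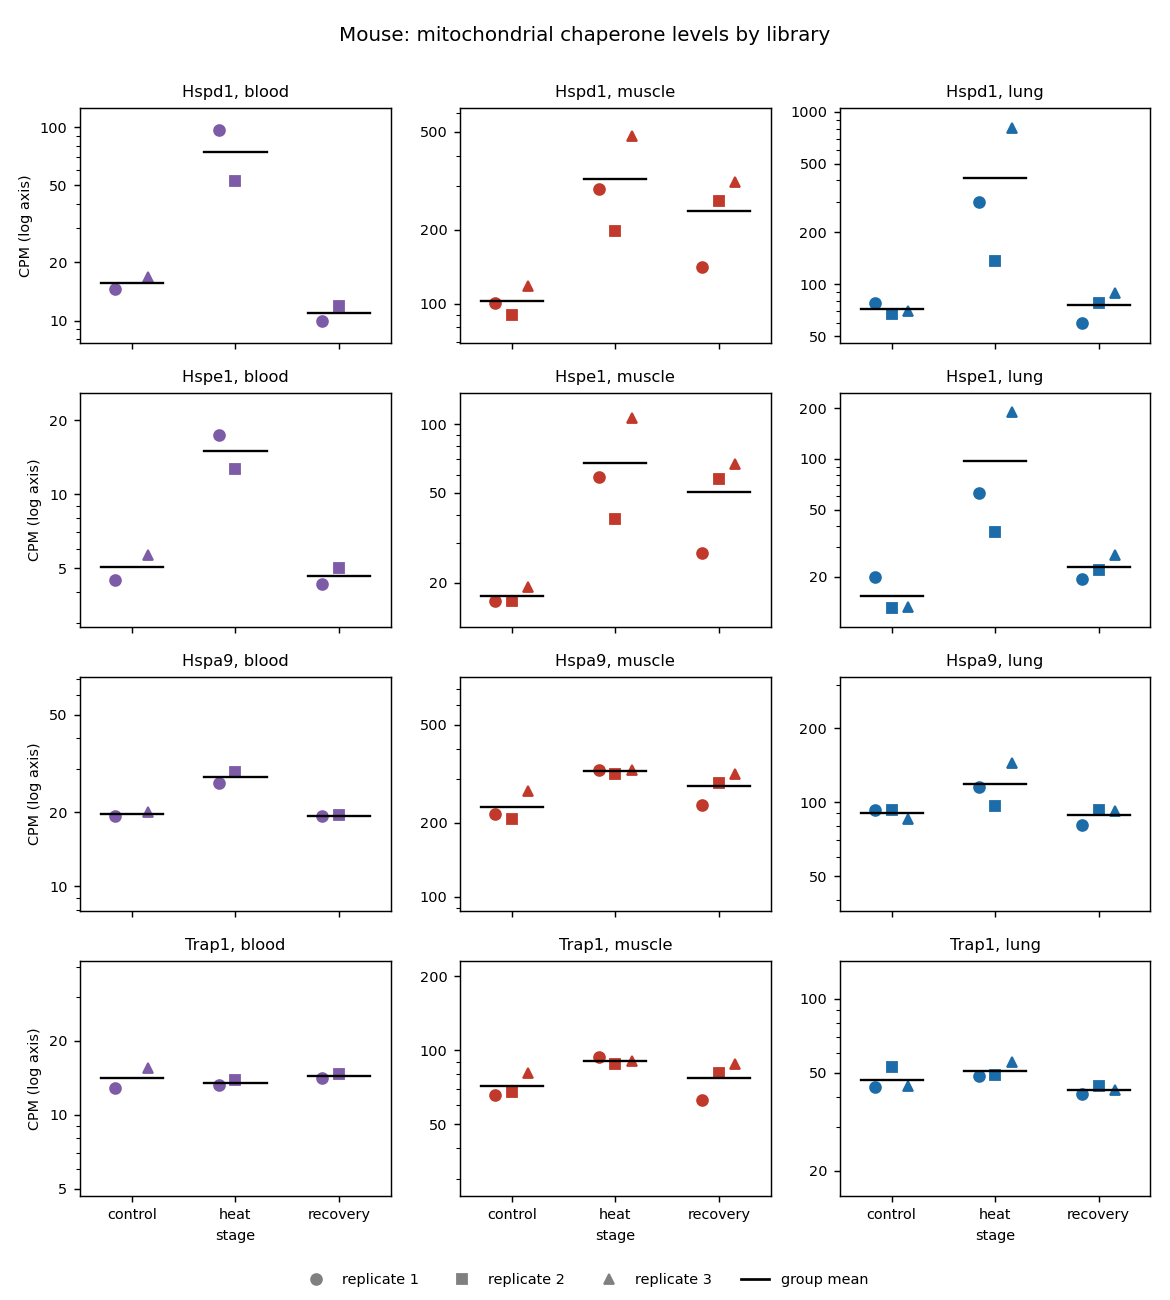
Levels of the 4 genes in mouse blood, muscle and lung, in CPM scaled within each tissue, on log axes. Each panel has its own axis range, and levels in different tissues share no scale. Each symbol is 1 library, symbols stand for replicate numbers and black bars for group means. The heat libraries of Hspd1 and Hspe1 lie above all control libraries in the 3 tissues, and in muscle the recovery libraries (141 to 313 CPM for Hspd1) stay above control.

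The heat response of the 4 genes was not shown to differ between tissues. In the bat no gene of the 4 was called by edgeR or DESeq2 for a difference in heat response between muscle and lung (0 at an unadjusted p under 0.05), blood and lung (0) or blood and muscle (1), where 0%, 0% and 0% of all genes were called. In the mouse the counts were likewise 0 by both tools for muscle and lung (0 at an unadjusted p under 0.05), blood and lung (0) and blood and muscle (1), where 0.0443%, 0.0575% and 1.47% of all genes were called.

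To determine whether bat and mouse responded differently, the bat change minus the mouse change was tested in a joint edgeR fit. Besides the 4 members, it held only bat rows that carry a mouse identifier and share a name with the mouse table. Apart from the members, the 18152 bat rows with a human identifier were left out. After the filter 197 genes were tested in lung and 157 each in muscle and blood. The adjusted p and the shares of genes called refer to this small set. Hspe1 in lung at heat was called. Its log2 change was -0.18 in the bat and 2.65 in the mouse, a difference of -2.83 (SE 0.65, 95% interval -4.25 to -1.42, edgeR adjusted p = 0.0369). For Hspd1 the changes were 0.35 in the bat and 2.53 in the mouse, a difference of -2.18 (95% interval -3.52 to -0.85, edgeR adjusted p = 0.0635). The difference was -0.11 for Hspa9 (-0.75 to 0.54) and -0.09 for Trap1 (-0.67 to 0.49). Thus 1 of 4 was called by edgeR, and 2 by DESeq2. Of the 197 genes edgeR called 2 (1.02%), and Hspe1 is 1 of these. The share thus includes the member, and the other genes were chosen by their identifiers, so it is no independent background. The Hspe1 call was kept in 6 of 18 fits that each left out 1 library, and the adjusted p ran from 0.00397 to 0.109. With the replicate number as a block the difference was -2.56 (edgeR adjusted p = 0.0579). It was lost without bat control 3 (-2.45), heat 1 (-2.55), heat 3 (-2.86), recovery 1 (-2.83) or recovery 2 (-2.82), and without mouse control 1 (-3.06), 2 (-2.73) or 3 (-2.73), heat 3 (-1.87) or recovery 1, 2 or 3 (-2.83 each). Hspd1 was called without bat control 2 (-2.20) or mouse heat 2 (-2.60), and stood at -1.26 without mouse heat 3.

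At recovery in lung, the changes against control were -1.70 in the bat and 0.56 in the mouse for Hspe1, a difference of -2.26 (95% interval -3.67 to -0.85, edgeR adjusted p = 0.101), and -1.49 in the bat and 0.08 in the mouse for Hspd1, a difference of -1.56 (-2.90 to -0.23, edgeR adjusted p = 0.274). Hspa9 (-0.34) and Trap1 (0.36) had intervals that included 0. None was called by edgeR (1.52% of the 197 genes were), 2 had an unadjusted p under 0.05 and DESeq2 called 1 (Hspe1). Without mouse heat 2 or 3 edgeR called Hspe1 at -2.26. In muscle at heat, Hspe1 differed by -1.79 (-2.87 to -0.71, edgeR adjusted p = 0.0747) and Hspd1 by -1.42 (-2.41 to -0.43, edgeR adjusted p = 0.152), with 0 of 4 called by edgeR (0% of 157 genes), 2 at an unadjusted p under 0.05 and 1 called by DESeq2 (Hspe1). In muscle at recovery the differences were -1.57 for both chaperonin genes (edgeR adjusted p = 0.196 for Hspd1 and 0.23 for Hspe1), with 0 called by edgeR (0% of genes) or DESeq2 and 2 at an unadjusted p under 0.05. Without mouse recovery 1 edgeR called both, at -1.84 and -1.88. In blood no difference was called at heat (Hspd1 -0.94, -2.52 to 0.64, Hspe1 -0.38, -2.49 to 1.74) or at recovery (Hspd1 -0.90, -2.48 to 0.68, Hspe1 -1.47, -3.60 to 0.67), with 0 by edgeR, DESeq2 and an unadjusted p under 0.05 in both and 0% and 0% of genes called. The heat and recovery changes share their control libraries.

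**Figure D3:**
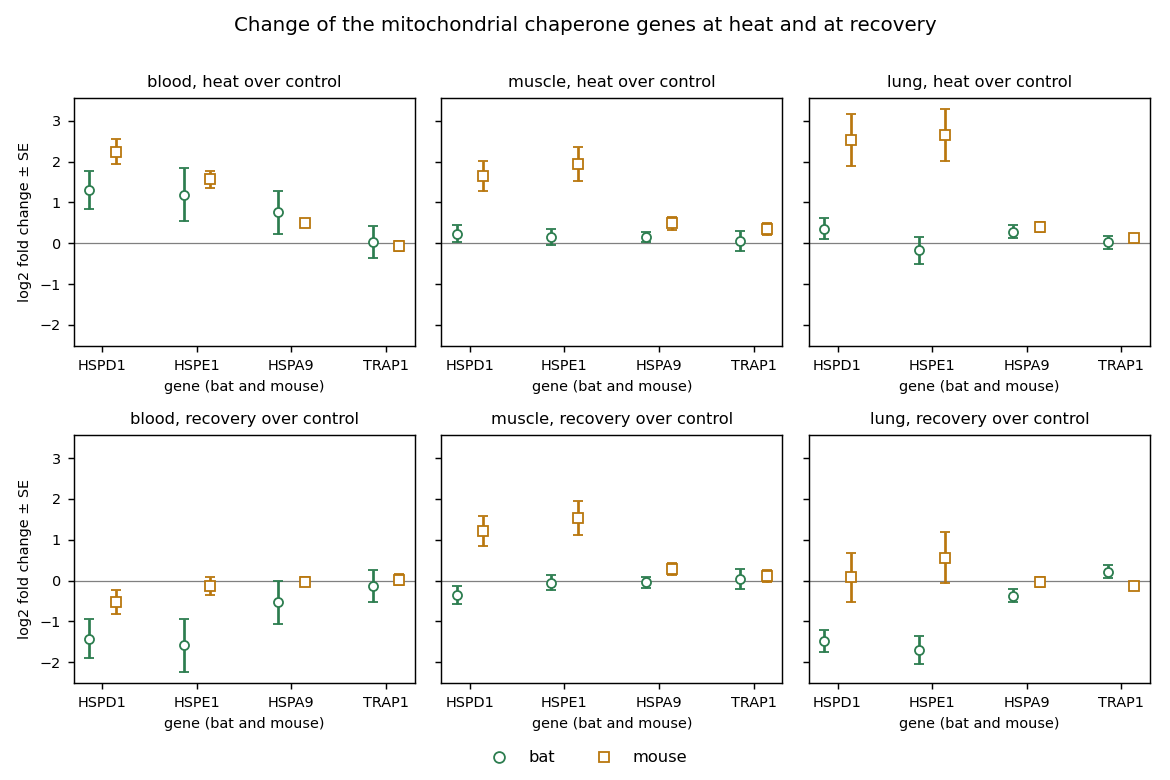
Log2 change of the 4 genes at heat (upper panels) and at recovery (lower panels) against control, in blood, muscle and lung. Bat values are circles to the left of the mouse squares, bars are the SE worked back from the edgeR test, and open symbols mark that no change was called. In lung and muscle at heat the mouse values of HSPD1 and HSPE1 lie between 1.65 and 2.65 and the bat values between -0.18 and 0.35.

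The 2 chaperonin genes varied together from library to library in both species. Over all libraries, with levels centred on the mean of each tissue, Pearson's r between HSPD1 and HSPE1 was 0.89 in the bat (n = 27) and 0.96 in the mouse (n = 24). In the bat it was 0.93 in lung, 0.91 in blood and 0.49 in muscle, and in the mouse it was 0.98 in lung, 0.99 in blood and close to 1.00 in muscle (0.9962). These points share libraries, depth and stages, and in the mouse the genes also overlap. HSPD1 and HSPA9 correlated at 0.74 in the bat and 0.90 in the mouse. Over all libraries r between TRAP1 and HSPD1 was 0.06 in the bat and 0.47 in the mouse, and it varied by tissue. It was -0.50 in bat lung, -0.10 in bat muscle and 0.36 in bat blood, and 0.69 in mouse lung, 0.78 in mouse muscle and -0.38 in mouse blood. In mouse muscle Trap1 and Hspa9 correlated at 0.95, above Hspd1 and Hspa9 at 0.89.

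The number of HSPD1 reads per HSPE1 read does not depend on scaling. It was 2.09 to 4.25 in group means of the bat and 2.35 to 5.85 in those of the mouse. The 4.25 was that of bat blood at recovery (SD 3.34), where library 2, with 29 reads of HSPE1, stood at 8.10. In mouse muscle it was 5.85 ± 0.41 in control, 4.90 ± 0.33 at heat and 4.80 ± 0.34 at recovery (SD, n = 3 each), and the heat and recovery ranges (4.53 to 5.17 and 4.53 to 5.19) lay below that of control (5.37 to 6.11). In mouse lung it was 4.78 ± 0.74 in control, 4.26 ± 0.54 at heat and 3.32 ± 0.24 at recovery, and in mouse blood 3.11 ± 0.17, 4.85 ± 0.97 and 2.35 ± 0.04 (SD, n = 2 each). Bat lung libraries ran from 1.82 to 3.22 in control, from 3.46 to 3.69 at heat and from 2.65 to 3.33 at recovery, so that heat lay above both other stages. Against HSPA9, HSPD1 had 1.37 ± 0.39 reads per read in bat lung control, 1.35 ± 0.43 at heat and 0.61 ± 0.06 at recovery. In mouse lung the same ratio was 0.79 ± 0.06 in control, 3.21 ± 2.15 at heat and 0.85 ± 0.11 at recovery.

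**Figure D4:**
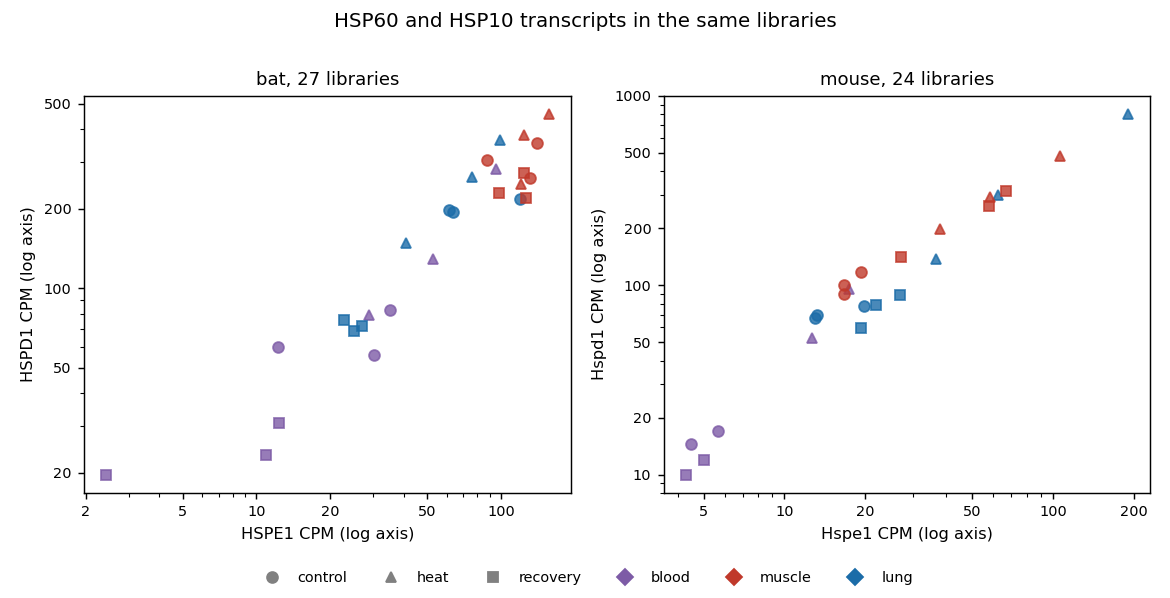
HSPD1 against HSPE1 in every library, in CPM scaled within each tissue, on log axes. Left, 27 bat libraries, right, 24 mouse libraries. Symbols stand for stages and colours for tissues. The mouse pairs run from 9.96 and 4.30 CPM in a blood recovery library to 806 and 191 CPM in a lung heat library. Tissues share no scale here, and the scaling of a library moves both genes together. Group means of HSPD1 reads per HSPE1 read ran from 2.35 to 5.85 in the mouse and from 2.09 to 4.25 in the bat.

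Other genes of mitochondrial protein handling were examined in the mouse, where rows carry symbols. Of 16 genes of the import motor and translocases, 1 rose in lung at heat and none fell, a share near the 5.85% of all genes called there in either direction, with a median log2 change of -0.02 against -0.01 over all genes. The 1 gene was Grpel2, an exchange factor of mitochondrial HSP70, at 57.0 CPM at heat and 36.5 CPM in control (0.64, edgeR adjusted p = 0.0263). It fell between heat and recovery (-0.68, edgeR adjusted p = 0.0137). Of 11 tested mitochondrial proteases and prohibitins 1 was called at heat, against the same 5.85%. Oma1, an inner membrane protease, fell at heat (-0.45, edgeR adjusted p = 0.0254) and rose between heat and recovery (0.34, edgeR adjusted p = 0.0458), and the list median at heat was 0.00. Of 8 tested factors and targets of the mitochondrial stress response 1 was called at heat, again against 5.85%. The transcription factor Cebpb rose (0.83, edgeR adjusted p = 0.0477), with a list median of 0.75. Between heat and recovery, where 11.3% of all genes were called, 3 of the 8 fell, the transcription factors Atf4 (-1.13), Cebpb (-1.07) and Ddit3 (-0.98). None of 20 respiratory chain and citric acid cycle genes was called in lung at heat (median -0.04), nor any of 6 biogenesis factors (median -0.06).

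In mouse muscle and blood at heat none of the genes on these lists was called. In muscle the median log2 change at heat was 0.41 for the 20 respiratory chain and citric acid cycle genes, of which 19 had heat libraries above control libraries, 0.24 for the 16 import genes (7 without overlap) and 0.24 for the 11 proteases and prohibitins (6 higher and 1 lower without overlap), against -0.05 over all genes, of which 37.7% did not overlap. For 7 tested stress factors and targets the muscle median was 0.10, with 4 of 7 above 0. Among them Atf4 stood at 0.77 and Cebpb at 0.66, and Trib3 at -1.51 and Asns at -0.97. The muscle markers given above were higher in these heat libraries too. In blood the medians at heat were -0.20 for import genes, -0.08 for proteases and prohibitins, 0.70 for the stress factors and targets and -0.08 for the respiratory chain genes, against 0.02 over all genes. Between heat and recovery in blood Chac1, a glutathione-degrading enzyme, fell (-3.28, edgeR adjusted p = 0.0329), in a comparison where 3.99% of all genes were called. The mitochondrially encoded rows were limited to 2 ribosomal RNAs, and neither was called in any tissue.

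The cytosolic heat shock genes set a level for comparison in the same libraries. Like the lists above, they were chosen with earlier results of these data known, so their rise is not independent support. Of 17, 14 rose in mouse lung at heat (median 2.22, with 5.85% of all genes called) and 8 of 17 rose in muscle (median 2.06, with 0.428% called). In blood 0 of 16 were called (median 2.58, with 0% called), while all 16 had heat libraries above control, in a comparison where 43.6% of all genes did not overlap. Hspd1 and Hspe1 lay above this median in lung (2.53 and 2.65) and below it in muscle (1.65 and 1.95) and in blood (2.24 and 1.56), while Hspa9 and Trap1 lay between -0.07 and 0.49. At recovery against control 3 of 17 were called in muscle, Hspa1a (7.83), Hspa1b (8.11) and Hspb1 (3.13), with a median of 1.60, and 0 in lung (median -0.12) and blood (median 0.51). Of all genes 0.0676% were called there in muscle, 0.0309% in lung and 0% in blood. Hspa1a and Hspa1b are near-identical copies whose reads may be split between them. Between heat and recovery 15 of 17 fell in lung and 8 of 16 in blood, where 11.3% and 3.99% of all genes were called.

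The genes most like the mean of the 4 in the mouse, by Pearson's r of tissue-centred levels over 24 libraries and among 7867 genes with at least 5 CPM in each tissue, were Uspl1 (0.97), Dnaja1 (0.96), Stip1 (0.95), Cacybp (0.95) and Fkbp4 (0.94). The median r over the ranked genes was 0.08. The mean was taken without scaling each gene, so Hspd1 and Hspe1, which varied most, weighed most in it. Trap1 correlated with Hspd1 at only 0.47. Dnaja1 is a J-protein partner of HSP70, Stip1 links HSP70 to HSP90, and Fkbp4 is an immunophilin that binds HSP90. Dnaja1, Stip1 and Cacybp are also on the cytosolic list above. In the bat only 11 named genes met the same rule, and the highest of them was Zfp184 at 0.62 over 27 libraries.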

How the data were processed

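Directional RNA-seq libraries (NEBNext Ultra Directional, from TRIzol RNA, per the labels' protocols) went through STAR 2.7 for alignment and featureCounts (version not given in the sources used here) for counting, per the submitters' processing notes. These list GRCm39 for every sample, bat included, and no source used here says which genome the bat reads were set against. The authors deposited raw read counts per gene, which were used as deposited.

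Each species and tissue was fitted separately over its 3 stages with edgeR 4.0.16 (quasi-likelihood, robust, TMM scaling, filterByExpr with min.count 10 and min.total.count 15, R 4.3.3), with Benjamini-Hochberg adjustment across every gene tested and a threshold of 0.05. Tissues were compared in 1 fit per species, and species in a joint fit per tissue over 648 shared gene names before the filter. Of these, 644 are not among the 4 members, and all 644 are bat rows with a mouse identifier. Other bat rows with a human identifier were not paired with names and were left out. CPM per kb used exon lengths from a GRCm38 annotation, matched by symbol. The script was tested on simulated data. Alternatives were DESeq2 1.42.0, RLE scaling, no filter on low counts, a replicate block, fitting only the 2 groups compared and leaving out each library. The genes named are the 4 members, called genes of the lists, and genes most like the members' mean. Of the last, 5 are named in the mouse and only the highest in the bat. Trib3 and Asns are named too, though not called. Members and lists were chosen with earlier results of these data known.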

Additional observations from a re-analysis of the deposited data

Results flagged for a closer look

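The heat response of Hspe1 in lung differed between the species by a test of the difference itself, run over 197 genes. Its log2 change against control was -0.18 in the bat and 2.65 in the mouse, a difference of -2.83 (95% interval -4.25 to -1.42, edgeR adjusted p = 0.0369). All 3 mouse heat libraries lay above all mouse controls, and the bat heat libraries overlapped with bat controls. In these comparisons 26.9% of all genes in mouse lung and 10.5% in bat lung did not overlap in either direction. The mouse change by itself was not called (edgeR adjusted p = 0.063). The call of the difference was kept in 6 of 18 fits that left out 1 library. It was lost with the replicate number as a block (-2.56, edgeR adjusted p = 0.0579).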

How the results depend on the processing

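Among counts of members called, DESeq2 gave 3 in mouse lung heat vs control and recovery vs heat, 3 in mouse muscle heat vs control, 1 in mouse muscle recovery vs control, 3 in mouse blood heat vs control, 2 in bat lung recovery vs control, 3 in bat lung recovery vs heat, 2 in bat blood recovery vs heat, 1 in mouse control blood vs lung, and, for bat minus mouse, 2 in lung heat, 1 in lung recovery and 1 in muscle heat. In these comparisons of stages DESeq2 also called more of all genes, such as 2607 against 76 by edgeR in mouse muscle heat vs control. RLE scaling gave 1 in mouse lung recovery vs heat. Without a filter on low counts there was 1 in mouse lung recovery vs heat, 2 in mouse blood heat vs control and 1 in mouse control blood vs lung. That alternative was not run between species. Fitting only the 2 groups gave 2 in mouse muscle heat vs control, 0 in mouse blood recovery vs heat and 1 in bat lung recovery vs control. Under these settings and the replicate block below, no other count moved by over 1.5 times.

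With the replicate block the count was 0 in mouse blood recovery vs heat (adjusted p 0.105 and 0.114), 0 in bat lung recovery vs heat (HSPD1 -1.78) and 0 for bat minus mouse in lung heat (Hspe1 -2.56), and Hspe1 in mouse control blood vs muscle was called (-1.19). Signs reversed under the block for Trap1 in mouse blood heat vs control (0.0459), Hspe1 in mouse blood recovery vs control (0.12), TRAP1 in bat muscle recovery vs heat (0.0395, and 0.00548 without the filter) and Trap1 in the blood heat difference between species (-0.00598). The labels do not say what a number marks. In no tissue did every same-numbered pair across stages correlate above 0.1, so the block is not the main design. Some libraries did go with their number: in bat muscle each correlated best with its own in 18 of 18 comparisons across stages (3 of 18 in mouse lung). Between bat muscle and lung at the same stage this was 18 of 18. Of same-numbered pairs there, 8 of 9 were above 0.1 (lowest 0.0906), against 0 of 18 pairs of other numbers. Mouse tissues at the same stage gave 13 of 18 for muscle and lung, 8 of 12 for blood and lung and 9 of 12 for blood and muscle. Same-numbered mouse muscle and lung pairs were above 0.1 in 4 of 9 cases, against 0 of 18 for other numbers. The tissue comparisons without the block do not use this.

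Leaving out 1 library, members called ran from 0 to 3 in mouse lung heat vs control and recovery vs heat, mouse muscle heat vs control, mouse blood recovery vs heat and bat lung recovery vs heat, 0 to 2 in mouse blood heat vs control, 0 to 1 in bat lung recovery vs control and mouse control blood vs lung, 0 to 4 in bat control blood vs lung, and, for bat minus mouse, 0 to 2 in lung heat, 0 to 1 in lung recovery and 0 to 2 in muscle recovery. Small log2 changes crossed 0. In mouse lung recovery vs control Hspd1 ran from -0.0561 to 0.218 and Hspa9 from -0.0655 to 0.0332. Hspe1 ran from -0.704 to 0.0615 in mouse muscle recovery vs heat and from -0.283 to 0.0499 in mouse blood recovery vs control, where Hspa9 ran from -0.0532 to 0.0041 and Trap1 from -0.109 to 0.167. Trap1 ran from -0.182 to 0.0723 in mouse blood heat vs control. In bat lung heat vs control HSPE1 ran from -0.452 to 0.203 and TRAP1 from -0.078 to 0.119. In bat muscle HSPE1 ran from -0.0277 to 0.287 at heat and -0.233 to 0.0822 at recovery, both vs control, and TRAP1 from -0.187 to 0.214, -0.194 to 0.207 and, recovery vs heat, -0.165 to 0.17. In bat blood TRAP1 ran from -0.281 to 0.258 at heat, -0.357 to 0.0807 at recovery and -0.4 to 0.136 between them. In mouse control blood vs lung Hspe1 ran from -0.047 to 0.431 and Trap1 from -0.153 to 0.167. For bat minus mouse, lung heat gave -0.261 to 0.0574 for Hspa9 and -0.194 to 0.00398 for Trap1, muscle recovery -0.31 to 0.0917 for Trap1, blood heat -0.125 to 0.482 for Hspa9 and -0.215 to 0.323 for Trap1, and blood recovery -0.381 to 0.0576 for Trap1. None of these was called, and the cause of the changes was not tested. The HSPE1 level in bat blood recovery 2 rests on 29 reads, at 2.43 CPM. That library had a total of 12.5 M reads, the lowest in bat blood, and held 194 reads of TRAP1, at 16.2 CPM.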
